A study of Mus musculus with 11 samples.

Results

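Cytosolic ribosomal proteins form the protein part of the ribosome in the cytoplasm, and their transcripts were examined in the gingival epithelium of mice from which Langerhans cells (LCs), the dendritic cells of stratified epithelia, had been depleted during weaning. The genes were chosen by name. Every gene whose symbol opens with Rpl (large subunit) or Rps (small subunit) and that had values was taken, leaving out pseudogenes marked "-ps", the S6 kinases (Rps6k) and Rps19bp1, which is a binding protein. This gave 87 of the 19170 genes with values, 50 named for the large and 37 for the small subunit. The subunit was likewise taken from the name. Rps12l1, Rps3a2, Rps3a3, Rps4l and Rpl37rt have no coding sequence in the annotation used here for transcript lengths. The names Rpl10l, Rpl32l, Rpl39l, Rpl3l, Rpl6l and Rps27rt are listed without values.

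All 11 mice were langerin-DTR mice, which carry the diphtheria toxin receptor under control of langerin (Cd207), so that diphtheria toxin (DT) removes langerin-positive cells. DT was given to 6 mice, and PBS to 5 control mice that carry the same receptor, by injections at 17, 24 and 31 days of age. The gingival epithelium was taken at 8 weeks of age and its polyA-selected RNA was sequenced. By the study's own description LCs return to the gingiva by that age, so the comparison is of adult epithelium after a past depletion and not of epithelium without LCs. No mouse without the receptor was given DT here. Effects of DT itself and of the loss of langerin-positive cells therefore cannot be told apart. Depth was even, with 17509323 to 24325489 reads counted per mouse, and the deposited values are normalized counts, meaning reads divided by a size factor per mouse. The 8 keratinocyte markers were abundant in every mouse, with summed levels of 2350510 to 2412220 normalized counts in PBS mice and 2365000 to 2585930 in DT mice. Cd207 was low in both groups, with 23.9 ± 13.4 normalized counts (SD, n = 5) in PBS mice and 18.4 ± 1.99 (SD, n = 6) in DT mice, and the groups overlapped. Of 4 T cell markers, Trac and Trdc are listed without values, and the other 2 (Cd3e and Cd3g) gave summed levels of 28.2 normalized counts at most.

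Each ribosomal protein is needed in the same number of copies as the others, with the P-stalk proteins Rplp1 and Rplp2 as an exception, and the genes are therefore known for being expressed together. Their mRNAs are known as TOP mRNAs. They open with a C followed by an unbroken run of pyrimidines, the 5′ terminal oligopyrimidine tract, through which mTORC1 signalling adjusts their translation to nutrients and growth. Dividing cells, such as those in the basal layer of a squamous epithelium, make ribosomes at a high rate. Free Rpl5 and Rpl11, released when assembly of the ribosome fails, bind Mdm2 and stabilise p53.

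The sequence around the start of transcription was read for the 63 members that have an entry in the RefSeq promoter table (GRCm38.p6), matched by symbol. The windows printed here were searched for a pyrimidine run near the annotated start. They are from members whose values are described further on, and from Rpl28. Each window covers 15 bases on either side of the annotated start, 5′ to 3′. Capitals mark a run of at least 5 pyrimidines that opens with C within 5 bases before to 10 bases after that start. This C had to follow a base other than C or T, unless it lay at the start itself. Pyrimidine stretches that open otherwise were not counted as runs.
Rps18, chr17:33955651-33955680, minus strand: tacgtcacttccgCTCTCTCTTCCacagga
Rps6, chr4:86857353-86857382, minus strand: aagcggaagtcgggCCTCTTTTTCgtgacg
Rpl28, chr7:4792950-4792979, plus strand: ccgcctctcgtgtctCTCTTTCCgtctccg
Rpl13a, chr7:45128731-45128760, minus strand: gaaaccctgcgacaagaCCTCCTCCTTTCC
Rps27, chr3:90213634-90213663, minus strand: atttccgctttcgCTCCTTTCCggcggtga
Rps27l, chr9:66946071-66946100, plus strand: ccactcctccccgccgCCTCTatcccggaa
Rpl5, chr5:107900513-107900542, plus strand: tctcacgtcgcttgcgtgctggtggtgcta
Rpl9, chr5:65391417-65391446, minus strand: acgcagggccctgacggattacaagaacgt
The windows of Rps18, Rps6, Rpl28, Rpl13a and Rps27 hold runs of 11, 10, 8, 14 and 9 bases, of which that of Rpl13a goes on past the end of the window by 1 base, and that of Rps27l, a paralog of Rps27, holds one of 5 bases. Rps27l has another annotated start, whose window holds none. The windows of Rpl5 and Rpl9 hold no such run, which says only that these letters are not at the annotated start. Of the runs printed, only that of Rpl28 opens at the annotated first base, where a 5′ terminal tract would open. Over all windows of the 63 members, 6 runs opened at that base.

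A run was found in 29 of the 63 members (46.0%), against 21.0% of the 27025 genes in the table and 23.5% of the 2859 other genes whose mean level was 1000 normalized counts or more here. In the whole stretch from 250 bases before to 50 bases after the start, and on either strand, CCGGAAG, a form of the ETS factor motif, was found in 39.7% of the members, 9.93% of all genes and 18.7% of the other abundant genes. AAGATGGC, a core of the YY1 motif, was found in 9.52%, 3.19% and 5.81%, and GGGCGG, the GC box, in 61.9%, 38.2% and 74.9%. These shares describe the sequence and carry no measurement of binding. Among members whose mean level was 1000 normalized counts or more, the median difference between DT and PBS mice, as log2 fold change, was 0.15 for the 26 with a run and 0.13 for the 30 without one, with ranges of 0.04 to 0.34 and 0.05 to 0.43.

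The members were among the most abundant transcripts of the epithelium. Of the 87 genes, 76 had a mean level over all mice of 1000 normalized counts or more, 6 had a mean between 10 and 1000, and 5 lay under 10. The 76 ranged from 1516 (Rpl7l1) to 51334 (Rplp0), with a median of 12792. The 5 of highest mean level were Rplp0, the scaffold of the P-stalk, Rpl4, Rps4x, Rpsa, a small subunit protein also known as the laminin receptor, and Rplp1. Levels per kilobase of transcript ran in PBS mice from 557 for Rpl7l1 to 46645 for Rplp1 among these 76 genes. They rest on 1 annotated transcript per gene, such as 3706 nt for Rps20, whose coding sequence is 357 nt. The study names a KAPA mRNA kit but read processing by the QuantSeq guide, and how counts scale with length was not tested. Genes can therefore be compared by these levels only roughly.

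The low members were of another kind. Rps12l1, Rps3a3, Rps23rg1, Rps3a2 and Rpl37rt, retrogenes or copies by their names, had means of 1.29 to 4.67 normalized counts, at which counting error is large. Rpl24, Rps10, Rpl36al and Rpl13a had means of 51.8, 51.2, 11.1 and 841 normalized counts. They are also the 4 members with the largest part of their exons under exons of another gene on the same strand in GENCODE M21, with 47.0% for Rpl24, 20.6% for Rps10, 24.5% for Rpl36al and 35.4% for Rpl13a, against at most 14.5% for the 76 abundant members. Other low members had 0% of their exons so covered, namely Rps27l and Rps4l, with means of 920 and 301 normalized counts, and Rps12l1, Rps3a3, Rps3a2 and Rpl37rt. Reads that fall on 2 genes are commonly left out by the counting tool, and whether this set the low levels was not tested. Likewise, how reads shared with the many processed pseudogenes of this family were counted cannot be seen in the files, so the level of any one member is uncertain to that extent.

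The share of all normalized counts that fell on the 87 genes was 4.55%, 4.71%, 4.87%, 3.95% and 5.63% in PBS 1 to PBS 5. In DT 1 to DT 6 it was 5.28%, 5.15%, 4.83%, 5.26%, 5.35% and 5.19%. All 6 DT mice lay within a narrow band, whereas the PBS mice held both the lowest value (PBS 4) and the highest (PBS 5), so the groups overlapped. The mean was 4.74% ± 0.608 (SD, n = 5) in PBS mice and 5.18% ± 0.182 (SD, n = 6) in DT mice, a difference of 0.434 percentage points. Without PBS 4 and PBS 5, left out together after their values had been seen, the difference was 0.467. In bulk epithelium a larger share of cells rich in ribosomal protein mRNA and more such mRNA per cell cannot be told apart.

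**Figure D1:**
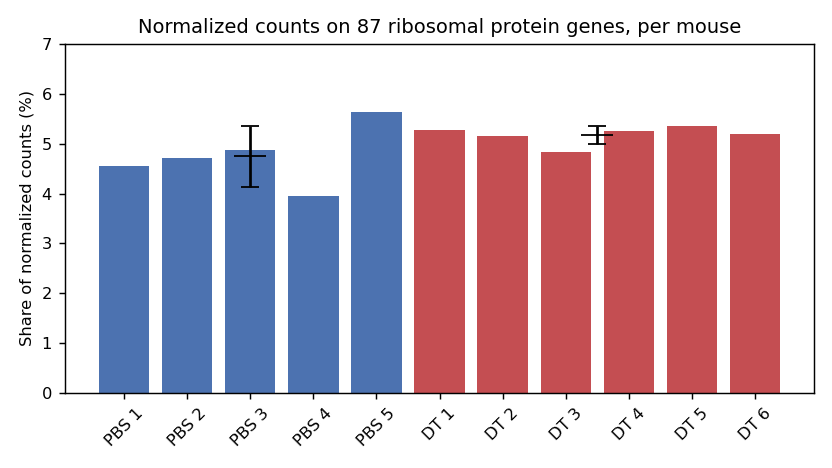
Bars give the share of normalized counts (%) on the 87 ribosomal protein genes in each PBS mouse (blue) and DT mouse (red), and the black marks give the group mean ± SD (n = 5 and n = 6). The PBS mice span 3.95% to 5.63% and enclose all DT mice, which lie between 4.83% and 5.35%.

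To compare the groups gene by gene, limma was fitted to log2(normalized count + 1) of all 19170 genes, with Benjamini-Hochberg adjustment and the study's threshold of 0.1. No ribosomal protein gene passed it (0 of 87), while 0.558% of all genes did (0.313% higher after DT). At an unadjusted p under 0.05, 29 members were higher after DT and 0 were lower, against 5.31% of all genes higher and 6.19% lower, and 12.1% higher among all genes with a mean level from 1000. The log2 fold change was above 0 in 82 of 87 members and in all 76 with a mean level from 1000, against 47.3% of all genes, 50.7% of genes with a mean level from 10 and 65% of genes with one from 1000. The median log2 fold change was 0.14 over the members, -0.01 over all genes and 0.03 over genes with a mean level from 1000. The differences were therefore small and nearly all in one direction. These genes are expressed together and the same mice enter each of them, so their counts are not independent of one another.

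**Figure D2:**
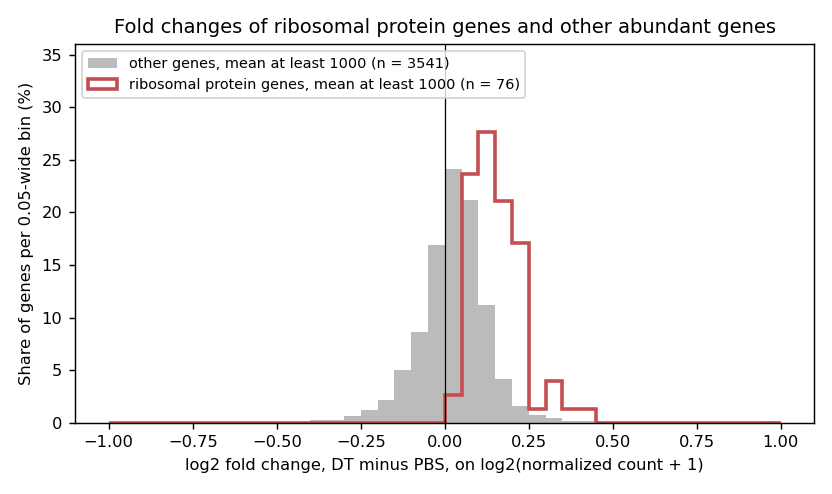
The x axis gives the log2 fold change, DT minus PBS, on the log2(normalized count + 1) scale, and the y axis gives the share of genes (%) per bin, for ribosomal protein genes (red line, n = 76) and other genes (grey, n = 3541) whose mean level was 1000 normalized counts or more. Values beyond 1 in either direction are drawn in the end bins. The ribosomal protein genes lie between 0.04 and 0.43, to the right of the middle of the other genes.

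Rpl5, a large subunit protein that carries 5S rRNA into the ribosome, had the smallest p of the members. Its normalized counts were 16181, 15808, 13442, 13196 and 18876 in PBS 1 to PBS 5. In DT 1 to DT 6 they were 19661, 19366, 17642, 20941, 20089 and 19508. Of the DT mice only DT 3 lay below PBS 5, and every DT mouse lay above the other PBS mice. The log2 fold change was 0.34 ± 0.083 (SE), with an adjusted p of 0.118 by limma, which misses the threshold. Rpl11, its partner in the 5S particle, was at 12693 ± 1682 (SD, n = 5) in PBS mice and 14326 ± 420 (SD, n = 6) in DT mice, a log2 fold change of 0.18 (limma adjusted p = 0.326). PBS 5 exceeded all DT mice for Rpl11, at 15483 normalized counts.

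The 4 members that followed Rpl5 in order of p were Rpl13a, Rpl9, Rpl19 and Rps9, with limma adjusted p of 0.196, 0.203, 0.234 and 0.234. Rpl13a had 765, 744, 688, 647 and 932 normalized counts in PBS mice and 864, 879, 862, 976, 979 and 911 in DT mice. Only PBS 5 reached the range of the DT mice. Rpl19 and Rps9, of the large and the small subunit, had log2 fold changes of 0.24 and 0.25, and in each of them PBS 5 was the highest of all mice and PBS 4 the lowest.

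The 5 largest differences were those of Rpl9 (log2 fold change 0.43), Rps14 (0.36), Rpl5, Rps18 (0.34) and Rpl41 (0.30). Rpl9 had 11155, 12060, 9859, 8855 and 17195 normalized counts in PBS mice. In DT mice it had 15315, 15457, 13931, 17067, 15799 and 15574. PBS 5 was above all DT mice and PBS 1 to PBS 4 were below all of them. Rps14, a protein of the platform of the small subunit, showed the same arrangement in a wider form. Its normalized counts were 8273, 8916, 6558, 6858 and 14738 in PBS mice and 11028, 11559, 9825, 12218, 11494 and 10862 in DT mice. Rpl41, the smallest ribosomal protein, had 14631, 14617, 10621, 11597 and 20442 normalized counts in PBS mice. In DT mice it had 17563, 18175, 15002, 19027, 18090 and 16204, again all above PBS 1 to PBS 4 and below PBS 5. Rps18 had 12651, 13427, 11072, 10530 and 18368 normalized counts in PBS mice and 14912 to 17473 in DT mice (median 16579). The limma adjusted p was 0.203 for Rpl9, 0.242 for Rps18, 0.367 for Rpl41 and 0.368 for Rps14, so these larger differences came with a larger spread.

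**Figure D3:**
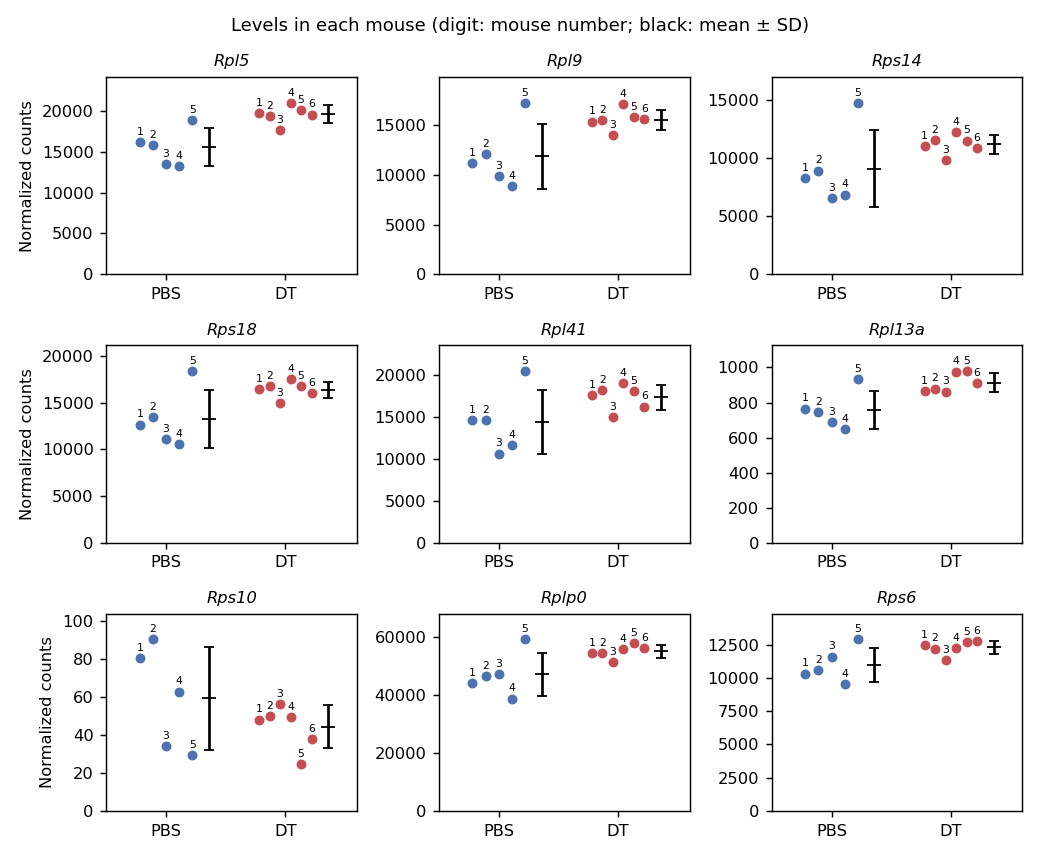
Each panel shows the normalized counts of a ribosomal protein gene in every mouse (blue, PBS, n = 5; red, DT, n = 6; digits give the mouse number), with the group mean ± SD in black and a y axis that starts at 0. In Rpl9, Rps14, Rps18 and Rpl41 PBS 5 lies above all DT mice and PBS 1 to PBS 4 lie below them, whereas Rps10 is low and scattered in both groups.

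Further members were named for their functions. Rps6, the target of S6 kinase, had 10327, 10578, 11607, 9565 and 12914 normalized counts in PBS mice and 11352 to 12793 in DT mice (median 12369), a log2 fold change of 0.17. Rps3, which lines the mRNA entry and also has a role in DNA repair, had a log2 fold change of 0.21, and Rps19, the gene most often mutated in Diamond-Blackfan anaemia, one of 0.17. Rpl3, which reaches towards the peptidyl transferase centre, had one of 0.20. The limma adjusted p of these genes lay between 0.257 for Rpl3 and 0.485 for Rps19. Rps3a1 was the only member whose groups did not overlap, with 18230 to 19512 normalized counts in DT mice above 14509 to 18114 in PBS mice (1 of 87, against 2.11% of genes with a mean level from 10, and 1.23% higher after DT). Its log2 fold change was 0.17 (limma adjusted p = 0.289).

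In the P-stalk, which recruits elongation factors, Rplp0 was at 47001 ± 7490 normalized counts (SD, n = 5) in PBS mice and 54945 ± 2161 (SD, n = 6) in DT mice, a log2 fold change of 0.24. Rplp1 and Rplp2, which bind to it, had log2 fold changes of 0.10 and 0.14. The limma adjusted p was 0.305 for Rplp0, 0.734 for Rplp1 and 0.491 for Rplp2. In all 3 genes PBS 4 was the lowest mouse and PBS 5 the highest.

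Some of the most abundant members had small differences. Rpl4 was at 36644 ± 3046 normalized counts (SD, n = 5) in PBS mice and 37969 ± 1253 (SD, n = 6) in DT mice, and Rps4x at 23674 ± 2475 and 25081 ± 880, log2 fold changes of 0.05 and 0.09. Rpsa, Rpl10, one of the last proteins to join the large subunit, and Rpl39, of the exit tunnel, had log2 fold changes of 0.14, 0.09 and 0.12. The limma adjusted p of these 5 genes lay between 0.468 for Rpsa and 0.800 for Rpl4.

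Of the members whose mean level reached 10 normalized counts, 3 were lower after DT, and all 3 were among the 6 with a mean under 1000. Rps10, of the small subunit, had 80.3, 90.4, 34.2, 62.8 and 29.4 normalized counts in PBS mice and 24.5 to 56.4 in DT mice (median 48.8), a log2 fold change of -0.33 (limma adjusted p = 0.708). The values of the PBS mice enclosed those of 5 of the 6 DT mice. Rps4l and Rpl36al had log2 fold changes of -0.03 and -0.01 with means of 301 and 11.1 normalized counts, and their sign changed under other settings. The median log2 fold change was 0.12 over 49 large subunit members and 0.16 over 33 small subunit members with a mean level from 10, a difference that was not tested. Of these, 15 and 14 were higher at an unadjusted p under 0.05, against 5.31% of all genes and 12.1% of those with a mean level from 1000.

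The PBS mice differed among themselves far more than the DT mice did. Over the 76 abundant members the median coefficient of variation was 14.1% in PBS mice and 4.18% in DT mice, against 7.76% and 4.97% for 3541 other genes with the same minimum level. The coefficient was larger in PBS mice for 75 of 76 members and for 77.4% of the other genes. PBS 4 was the lowest of all mice for 74 of the 76, and PBS 3 for the other 2 (Rps14 and Rpl41). PBS 5 was the highest for 46, DT 5 for 15, PBS 3 for 11, DT 4 for 3 and DT 1 for 1. PBS 1 and PBS 4 lay above the gene's mean over all mice for 0 of 76 members, while PBS 5 did so for 74 and DT 5 for all 76.

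The counts depended on single mice, most of all on PBS 4 and PBS 5. Without PBS 5, 23 members passed the threshold, all of them higher after DT, and 259 genes did in all. Among them were Rpl9 (log2 fold change 0.57), Rps14 (0.55), Rps18 (0.46), Rpl41 (0.44) and Rpl5 (0.42). In that case 30 members had DT mice that all lay above all remaining PBS mice, against 2.59% of genes with a mean level from 10. Without PBS 4, 0 members passed, 15 were higher at an unadjusted p under 0.05 and the median log2 fold change of the members was 0.07, and the non-overlapping members numbered 1, against 2.3% of genes with a mean level from 10. Without PBS 1, and likewise without DT 5, 0 members passed and 18 were higher at an unadjusted p under 0.05. Without both PBS 4 and PBS 5, 14 members passed and 46 were higher at an unadjusted p under 0.05. Over all genes, 27 passed without DT 5, and the count for the fit without both mice is not given here. How many of all genes reached an unadjusted p under 0.05 was not counted in these fits. The member counts at that level therefore have no background beside them. No reason to set a mouse aside is given in the labels, and with all kept no member passed.

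**Figure D4:**
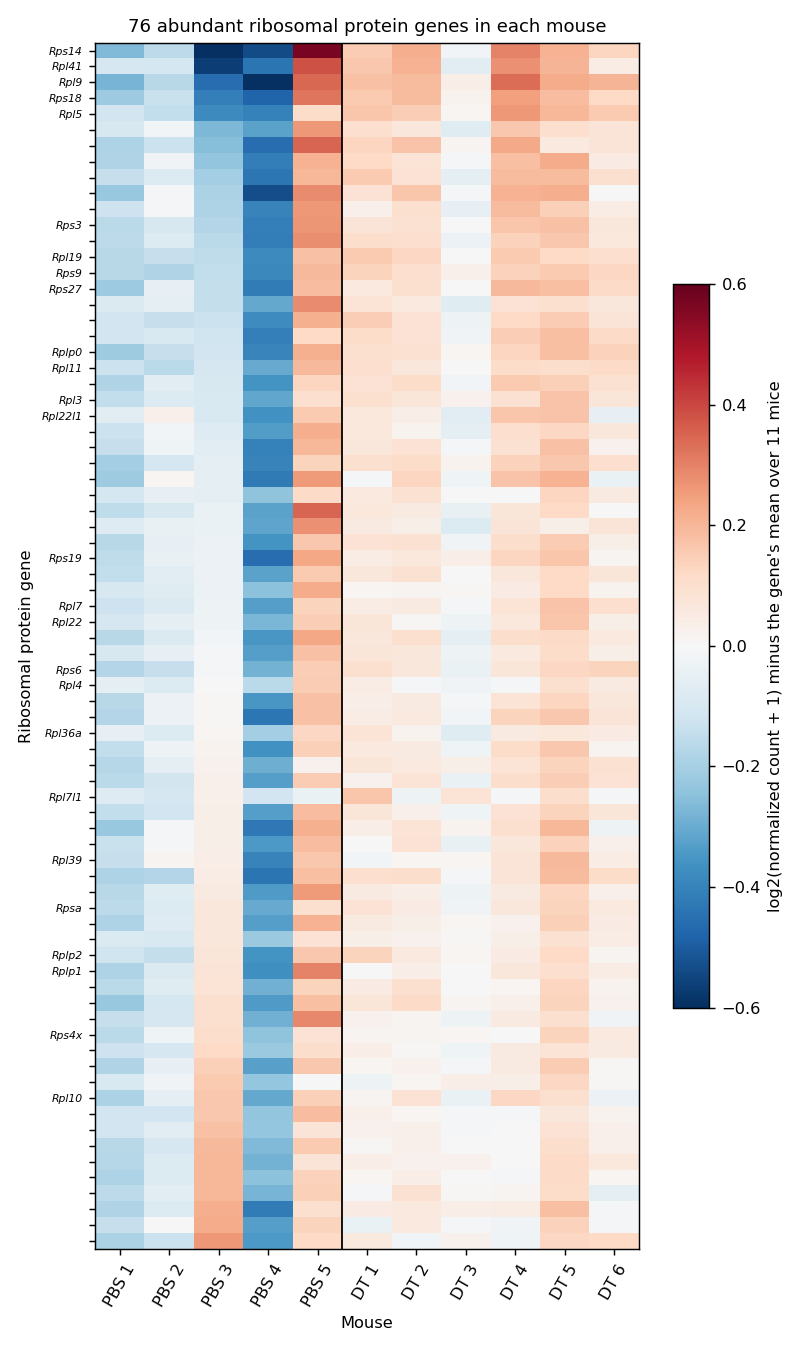
Rows are the 76 ribosomal protein genes whose mean level was 1000 normalized counts or more and columns are the mice, and colour gives log2(normalized count + 1) minus the gene's mean over the 11 mice, from blue (lower) to red (higher). Names are given for the members described one by one, and genes are ordered by their level in PBS 3 relative to the family, the lowest at the top. PBS 4 is low in nearly every row and PBS 5 high, while PBS 3 changes from low at the top to high at the bottom.

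The members did not move as a single block in every mouse. When each gene was set against the median of the 76 members in the same mouse, the SD over members was 0.172 on the log2 scale in PBS 3, against 0.046 to 0.091 in the other PBS mice and 0.032 to 0.078 in DT mice. In PBS 3 the members ran from -0.59 (Rps14) to 0.27 (Rps26) relative to that median. The 5 lowest in PBS 3 were Rps14, Rpl41, Rpl9, Rps18 and Rpl5, which are also the 5 largest differences between the groups, and PBS 3 is one of the mice from which those differences were computed. PBS 3 was the highest of all mice for 11 genes, among them Rps20, Rpl23a, Rpl7a, Rps26, Rpl10, Rpl30, Rpl23, Rpl29, Rps28 and Rps29. Rps26, for example, had 15433 normalized counts in PBS 3 and 10129 to 14046 in the other mice. The log2 fold changes of the 11 lay between 0.04 and 0.13, with a median of 0.07, against 0.14 over the 76. Their median transcript length was 710 nt against 778 nt over the 76, and their median GC content was 50.6% against 51.1%.

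The mice at the ends of the range of the members were also at the ends of the balance between short and long transcripts, though not every mouse had the same place in both. This balance was taken as the median deviation of genes with a transcript under 1000 nt minus that of genes over 4000 nt, on the log2 scale and over genes with a mean level from 10. It was -0.30 in PBS 4, -0.18 in PBS 1, -0.01 in PBS 2, 0.08 in PBS 3 and 0.18 in PBS 5, and -0.01 to 0.14 in DT mice. The members are themselves short, with a median transcript length of 775 nt. The mean deviation of the members was -0.33 in PBS 4, -0.14 in PBS 1, -0.05 in PBS 2, -0.04 in PBS 3 and 0.17 in PBS 5, and 0.0045 to 0.13 in DT mice. PBS 3 had a balance above that of 5 of the 6 DT mice, while its members were below those of all DT mice. After a correction for transcript length and GC content in each mouse, its SD over PBS mice was 0.092 in place of 0.181, and the difference between the groups 0.126 in place of 0.144. Under this correction 8 members passed the threshold, among them Rps9, Rpl19, Rpl9, Rpl5, Rpl31, Rpl13a and Rps27, and 184 genes in all. With the longest transcript of each gene in place of the one with the longest coding sequence, 3 passed, with Rpl19 and Rpl5 among them. The count over all genes with that choice is not given here. Whether length balance is a cause of the differences among these mice was not tested.

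**Figure D5:**
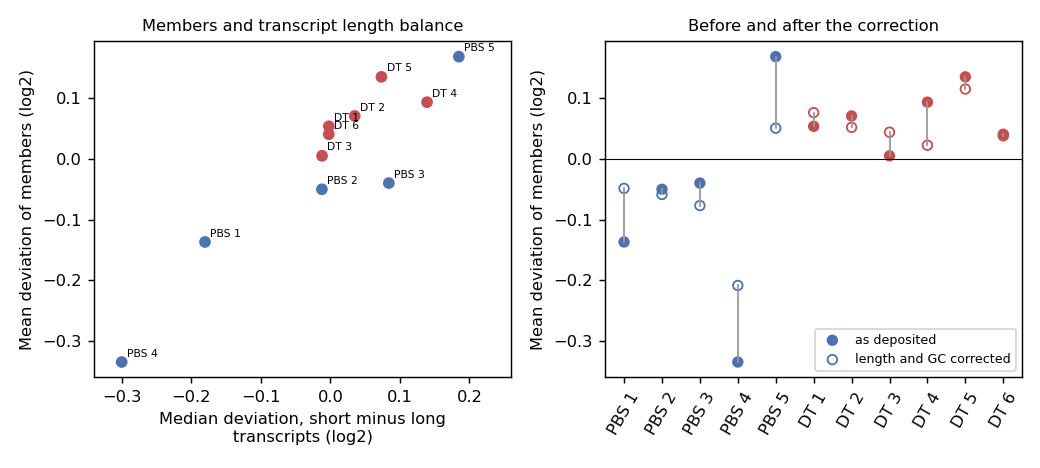
In the left panel each point is a mouse (blue, PBS; red, DT), with the balance of short against long transcripts on the x axis and the mean deviation of the ribosomal protein genes on the y axis, both in log2 units. In the right panel filled points give that mean deviation as deposited and open points after the correction for transcript length and GC content. PBS 4 moves from -0.33 to -0.21 and PBS 5 from 0.17 to 0.05.

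Other transcripts differed between the groups as well. The 12 mitochondrially encoded genes were all lower after DT, with a median log2 fold change of -0.64 and 1 past the threshold, and took 1.63% to 4.14% of the normalized counts in PBS mice and 1.34% to 2.24% in DT mice. All 7 markers of Langerhans and other myeloid cells were lower after DT (median log2 fold change -0.46) and 0 passed. Their summed levels were 1413 to 3572 normalized counts in PBS mice and 927 to 2021 in DT mice. PBS 3 (3572) and PBS 5 (2762) lay above all DT mice, while PBS 1, PBS 2 and PBS 4 lay within the DT range. Fibroblast markers (4 of 6 lower) and erythroid genes (4 of 5 lower) had medians of -0.45 each, and 6 of 8 keratinocyte markers were higher. The part of these in the ribosomal protein values was not tested.

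In several cases a ribosomal protein has a paralog, and the ratio of the 2 transcripts tells whether their balance differed between the groups. Whether each paralog can take the place of its parent in the ribosome was not examined. Rps4l has no coding sequence in the annotation used here. Of 8 pairs, 5 had both genes at a mean level of 10 normalized counts or more, and p-values were adjusted over these 5. For Rps27l over Rps27 the log2 ratio was -3.07, -3.04, -3.02, -3.07 and -3.15 in PBS mice. In DT mice it was -3.26, -3.14, -3.19, -3.19, -3.24 and -3.32. Only DT 2 lay above the lowest PBS mouse, PBS 5. The mean was -3.07 ± 0.048 (SD, n = 5) in PBS mice and -3.22 ± 0.064 (SD, n = 6) in DT mice, a difference of -0.15 (two-sided exact permutation test over all splits of the mice, p = 0.00649, adjusted p = 0.0325). Rps27 had a log2 fold change of 0.24 and Rps27l, which is known as a target of p53, one of 0.09, and neither passed the threshold on its own. The adjusted p of the ratio was 0.0794 to 0.0952 in 7 of the 11 tests that each left out a mouse, where fewer mice also make fewer splits, so the call was not stable.

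The other 4 ratios did not pass. The log2 ratio of Rpl22l1 over Rpl22 was -1.55 ± 0.071 (SD, n = 5) in PBS mice and -1.54 ± 0.063 (SD, n = 6) in DT mice. That of Rpl7l1 over Rpl7 was -3.60 ± 0.14 and -3.65 ± 0.10, and that of Rps4l over Rps4x was -6.29 ± 0.27 and -6.41 ± 0.25. For Rpl36al over Rpl36a it was -8.92 ± 0.40 and -8.99 ± 0.47, with the overlap of Rpl36al named above. The adjusted p of these 4 pairs was 0.837 to 0.883 in the exact permutation test. Rpl22 and Rpl22l1 themselves had nearly the same log2 fold change, 0.12 each.

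Some ribosomal proteins carry other names. Rack1, a scaffold on the small subunit, and Fau, the precursor of eS30, had log2 fold changes of 0.14 each, with PBS mice at 21833 ± 4075 and 6515 ± 1230 normalized counts (SD, n = 5). The limma adjusted p was 0.592 for Rack1 and 0.573 for Fau. The 77 mitochondrial ribosomal proteins, which build another ribosome in another compartment, had a median log2 fold change of 0.09, with 69 above 0 (50.7% of genes with a mean level from 10), 14 higher at an unadjusted p under 0.05 (5.31% of all genes) and 0 past the threshold. Of the 89 "-ps" pseudogenes only 9 had a mean level from 10.

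The machinery that works with the ribosome was described from 103 other genes in 6 lists of factors, TOP mRNAs, regulators, chaperones and quality control, and none of them passed the threshold (21 were higher and 2 were lower at an unadjusted p under 0.05, against 5.31% and 6.19% of all genes, with a median log2 fold change of 0.06). All 12 genes listed as elongation and termination factors had log2 fold changes above 0 (median 0.10) and 31 of 35 initiation factors did (median 0.08). Among all genes 50.7% of those with a mean level from 10 were above 0, and 65% of those with one from 1000. The 12 include Eef1a2, at a mean of only 1.29 normalized counts. They also include Eef2k, a kinase of Eef2 and not an elongation factor itself, with a log2 fold change of 0.18. The 3 genes of smallest p on the higher side were Eif2b5, of the exchange factor for eIF2, Heatr3, which carries Rpl5 into the nucleus, and Eef1a1, which delivers aminoacyl-tRNA, with log2 fold changes of 0.18, 0.24 and 0.26. Their limma adjusted p was 0.155, 0.214 and 0.237. On the lower side they were Huwe1, a ubiquitin ligase for unassembled ribosomal proteins, at -0.26, Vim, a TOP mRNA that is also a marker of mesenchymal cells, at -0.62, and Rps6kb2, an S6 kinase, at -0.12. Of the 20 mTORC1, S6 kinase and TOP regulators, 6 had log2 fold changes above 0 and the median was -0.03. The levels of Eef1a1 did not overlap between the groups, with means of 133709 ± 9682 normalized counts (SD, n = 5) in PBS mice and 159502 ± 6591 (SD, n = 6) in DT mice. Those of Eif2b5, Eif1ax and Eif4g2 did not overlap either. The groups did not overlap in 2.11% of genes with a mean level from 10, and in 1.23% they were higher after DT.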

How the data were processed

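RNA of the gingival epithelium was compared between 6 langerin-DTR mice given DT and 5 given PBS, grouped by the labels. The values are other than raw reads: the deposited normalized counts were made by the authors with per-mouse DESeq2 size factors from reads counted per gene. The study's methods and the submitters' processing notes name different builds (GRCm38 and GRCm39) and tool versions, the notes giving cutadapt 2.10, TopHat2 2.1.1, HTSeq 2.01 and DESeq2 1.36.0, so no coordinates are given for the deposited genes. Of 55414 genes listed, 36244 have no value. In each mouse 100% of low values were whole multiples of a single read's value, from which depth was recovered. Intervals here cover the spread between mice, each a separate animal by the labels.

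Groups were compared with limma 3.58.1 in R 4.3.3 (intensity trend, no covariate) on log2(normalized count + 1) without a filter, with adjustment over 19170 genes, after tests on simulated data. The fold change understates differences of low genes. Ratios of paralogs were tested by two-sided exact permutation, whose smallest p is 0.00216. Transcript length and GC came from GENCODE M21 (transcript with the longest coding sequence), which holds 52081 of the 55414 identifiers, and the correction used a loess span of 0.3. This transcript choice replaced the longest transcript, used at first through an error in reading coding lengths, after results with it had been seen. Promoter windows came from RefSeq GRCm38.p6, matched by symbol for 63 of 87 members.

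Members and gene lists were chosen with earlier results of these data known. Members named with values were 12 chosen for their functions, the paralog pairs, the 5 of smallest p, the 5 largest differences in each direction with a mean of at least 10 (3 were lower) and the 5 of highest mean, and for other translation genes the 3 of smallest p in each direction. Rps3a1, Rps26, the low members, the members most overlapped by other genes and those named as passing without a mouse, or as high or low in PBS 3, were chosen after their values were seen. Some genes that these rules name are not reported here. Alternatives were the pseudocount, a filter, scaling, array weights, a replicate block, a length and GC correction and leaving out mice.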

Additional observations from a re-analysis of the deposited data

Results flagged for a closer look

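Rps14 in PBS 5 stood apart from the other PBS mice, with 14737.6 normalized counts against 6558 to 8916 in PBS 1 to PBS 4. The gap to the nearest of them was 0.712 of the whole range, just above the critical value for 5 mice. It was the only one found among 64 groups of values (31 named members and the share of counts, in each treatment group), and chance alone finds about 1 in 20.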

How the results depend on the processing

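Under the alternatives run, the median log2 fold change of the members stayed above 0, between 0.0725 (without PBS 4) and 0.198 (without PBS 5). Members past the threshold numbered 0 with all mice, 6 with array weights, 8 with the length and GC correction, 3 with that correction by the longest transcript and 14 without PBS 4 and PBS 5, the last 2 chosen after seeing the data, and 0 to 23 in the fits without 1 mouse. Members higher at an unadjusted p under 0.05 numbered 29, against 15 with quantile normalization, 49 with array weights, 46 without PBS 4 and PBS 5, and 15 to 61 without 1 mouse (15 without PBS 4, 18 without PBS 1 and without DT 5, 61 without PBS 5). All genes past the threshold numbered 107, against 189 with array weights, 184 with the length and GC correction, 35 with the replicate block, 36 with the replicate block and that correction, and 27 to 259 without 1 mouse. The cause of these changes was not tested. How many of all genes reached an unadjusted p under 0.05 was counted only in the main fit with all mice.

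Whether the replicate numbers in the titles pair the mice is not stated in the labels. Same-numbered mice correlated at 0.088, 0.172, -0.233, -0.209 and 0.324 in their deviations, and only number 5 correlated best with its own number. So few correlations cannot exclude a pairing. The title of PBS 5 also carries another number in its brackets, so the pair used for it may not be the right one. With the replicate block 0 members passed. For Rps27l over Rps27 the blocked difference was -0.132 (exact sign-flip test over 5 pairs, p = 0.0625, the smallest it allows), and the differences without 1 mouse ran from -0.171 to -0.132.

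The log2 fold change of Rpl36al changed sign with a pseudocount of 5 (0.000302), with quantile normalization (0.132), and without PBS 1 (0.126), PBS 2 (0.050), DT 1 (0.153), DT 2 (0.0082) or DT 4 (0.021), and ran from -0.0919 to 0.153 over the fits without 1 mouse. That of Rps4l changed sign with the replicate block (0.056), with the block and the length and GC correction (0.052), without PBS 2 (0.041), PBS 5 (0.059) or DT 6 (0.056) and without PBS 4 and PBS 5 (0.031), and ran from -0.156 to 0.0589 over the fits without 1 mouse. Rpl36al is a low gene, at which counting error is large. Rps4l had a mean of 301 normalized counts and a log2 fold change of -0.03. Its SD between mice was 71.6 normalized counts in PBS mice and 45.3 in DT mice. The ratio of Rpl36al over Rpl36a changed sign in 2 fits without 1 mouse (-0.197 to 0.0905), and that of Rpl22l1 over Rpl22 in 4 (-0.0148 to 0.0283). Tests on counts with edgeR and DESeq2, which had been planned, were not run, because the size factors of PBS 3 and DT 3 lie so near to 1 that whole reads could not be checked in these 2 mice with a separate test of the file.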
